A study of Rattus norvegicus with 24 samples.

Results

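The genes described here encode 6 intermediate filament proteins, namely the heavy, medium and light neurofilament subunits (Nefh, ENSRNOG00000008716; Nefm, ENSRNOG00000013916; Nefl, ENSRNOG00000013658), internexin neuronal intermediate filament protein alpha (Ina, ENSRNOG00000020248), peripherin (Prph, ENSRNOG00000052880) and vimentin (Vim, ENSRNOG00000018087). They were chosen by name from the 32883 genes of the count files and not by a cut on any measured value. Earlier results of these data were known when they were chosen. Their unique molecular identifier (UMI) counts were examined in the 1433 of 1464 neurons that had at least 500 genes, at least 1000 UMIs and under 5% of UMIs from genes named Mt-. The neurons came from L4 and L5 dorsal root ganglia (DRG) of male Sprague-Dawley rats and were picked one at a time with a mouth pipette. In spared nerve crush (SNC) the tibial and common peroneal branches of the left sciatic nerve were crushed and the sural branch was left intact. In the sham operation the nerve was exposed and not injured. Fluorescent dyes injected into the branches before the operation marked the neurons to be picked. The dye-labelled set held 4 Sham samples (215 neurons), 4 SNC samples at 1 d (238), 3 at 3 d (237) and 5 at 7 d (240). Because the dye of a neuron could not be assigned here, each SNC sample mixes crushed and spared neurons and its level is an average over both. A later set of sham libraries, called added below, held 3 libraries at day 0, 2 at day 1, 1 at day 3 and 1 at day 7 after the operation (503 neurons in all). The labels do not say that each sample was a separate rat, so that p-values measure the spread between samples.

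Neurofilaments are the main scaffold of large myelinated axons. Nefl forms the core of the polymer, Nefm and Nefh add long phosphorylated side arms, and the amount of neurofilament sets axon calibre. In sensory ganglia, large mechanoreceptive and proprioceptive neurons are rich in neurofilament, small nociceptors are rich in peripherin, and internexin co-assembles with the other neuronal subunits. Vimentin is a filament protein of glia, fibroblasts and developing neurons. After axotomy, neurofilament transcripts are classically described as falling and peripherin as rising.

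UMI totals per DRG sample ran from 4002503 to 40733436, with median UMIs per neuron of 239292 in the dye-labelled and 340145 in the added set, and cell names were reused between libraries (270 of 276 pairs) although no cells were identical. Neuronal markers summed to between 4103 and 7342 CPM (UMIs of a gene scaled to a common UMI total per sample) in every sample, and glial markers to between 145 and 1614 CPM. Macrophage markers summed to at most 41.0 CPM. The added libraries were nearly free of Sprr1a, a small proline-rich protein induced in injured sensory neurons (UMIs in 1 of 503 neurons), whereas 788 of 930 dye-labelled neurons held it, at 54.9 to 282 CPM per sample and in the Sham samples too. Added library S4 stood apart, as described with its values below.

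Filament transcripts were among the best measured in these cells. UMIs of Nefm and Prph were found in all 930 dye-labelled neurons, of Nefl in 929, Nefh in 927, Ina in 912 and Vim in 852. A typical labelled neuron held 365 UMIs of Prph, 235 of Nefm, 209.5 of Nefl and 141 of Nefh, but 45 of Ina and 15 of Vim (medians). Between neurons, the middle 80% of the Ina levels spanned 14.8 to 666 CPM, against 330 to 1317 CPM for Nefh. UMIs were counted at 3′ ends without correction for length, so levels are compared between cells and not between genes.

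Promoter sequence was available for 3 of the 6 genes in RefSeq (build GRCr8), and it is shown because levels of Prph and Ina were positively related across neuron classes while rho for Ina with Vim was -0.02 (0.27 over the added sums). The 120 bases that end just before each annotated start are printed, plus strand, with matches to TATAAA or GGGCGG, on either strand, in capitals.
Prph, chr7:132097169-132097288: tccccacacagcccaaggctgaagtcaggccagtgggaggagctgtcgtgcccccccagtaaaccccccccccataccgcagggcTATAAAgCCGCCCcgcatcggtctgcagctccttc
Ina, chr1:255838009-255838128: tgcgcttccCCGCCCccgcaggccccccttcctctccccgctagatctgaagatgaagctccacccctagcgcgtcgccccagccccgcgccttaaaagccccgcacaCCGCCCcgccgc
Vim, chr17:81577141-81577260: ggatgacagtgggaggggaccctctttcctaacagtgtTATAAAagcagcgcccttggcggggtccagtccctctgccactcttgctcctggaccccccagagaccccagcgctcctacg
The TATAAA match of Prph began at -35 and that of Vim at -82 relative to the annotated start, and Ina had none in this window. Over 33469 promoters of the same length, 6.66% held TATAAA and 23.7% held GGGCGG. The letters CCAAT, TGACGTCA and TGACTCA, which 19.9%, 1.18% and 1.93% of promoters held, matched none of these windows. A match describes the letters only.

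To see which neurons carried each filament gene, neurons were clustered without the 6 genes, the dye-labelled and the added set apart. Clusters were named from markers that also left the 6 genes out. The 10 dye-labelled clusters comprised PEP1-like, PEP2-like and PEP3-like peptidergic neurons, A-fibre peptidergic-like neurons, NF-like large-fibre neurons (12 of 12 NF markers, among them Pvalb, Ntrk3, Runx3 and Spp1, beside 4 of 6 markers of C-fibre mechanoreceptors), nonpeptidergic NP-like neurons, a pair of SST-like clusters led by Fezf2 and by Sst, cold-like neurons with Trpm8 and an unnamed cluster high in glial genes. Levels by class are given as the mean of the CPM of summed UMIs per sample ± SD over samples with at least 3 cells of the class. They are a description with no test, because class and level come from the same cells.

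Neurofilament levels were highest in the NF-like neurons and second highest in the A-fibre peptidergic-like neurons. Nefh stood at 1275 ± 198 CPM in NF-like neurons (n = 12 samples, from 967 to 1676) and at 1045 ± 210 CPM in A-fibre peptidergic-like neurons (n = 15), against class means of 395 to 692 CPM elsewhere. Nefm stood at 2456 ± 514 CPM in NF-like and 1808 ± 282 CPM in A-fibre peptidergic-like neurons, with class means of 752 to 1226 CPM in the others. Nefl reached 2162 ± 456 and 1561 ± 357 CPM in these classes and means of 624 to 998 CPM in the others. For each of these genes the steps from NF-like to A-fibre peptidergic-like and from there to the next class exceeded the pooled SD. Below that the order of neighbouring classes did not, except that NP-like lay above the glial-gene-high cluster for Nefh. Within single samples, NF-like exceeded the other class in 78 of 81 pairings for Nefh, 78 of 81 for Nefm and 81 of 81 for Nefl. No class was without neurofilament transcripts, and the lowest class mean, Nefh in the glial-gene-high cluster, was still 395 ± 55.5 CPM (n = 7).

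**Figure D1:**
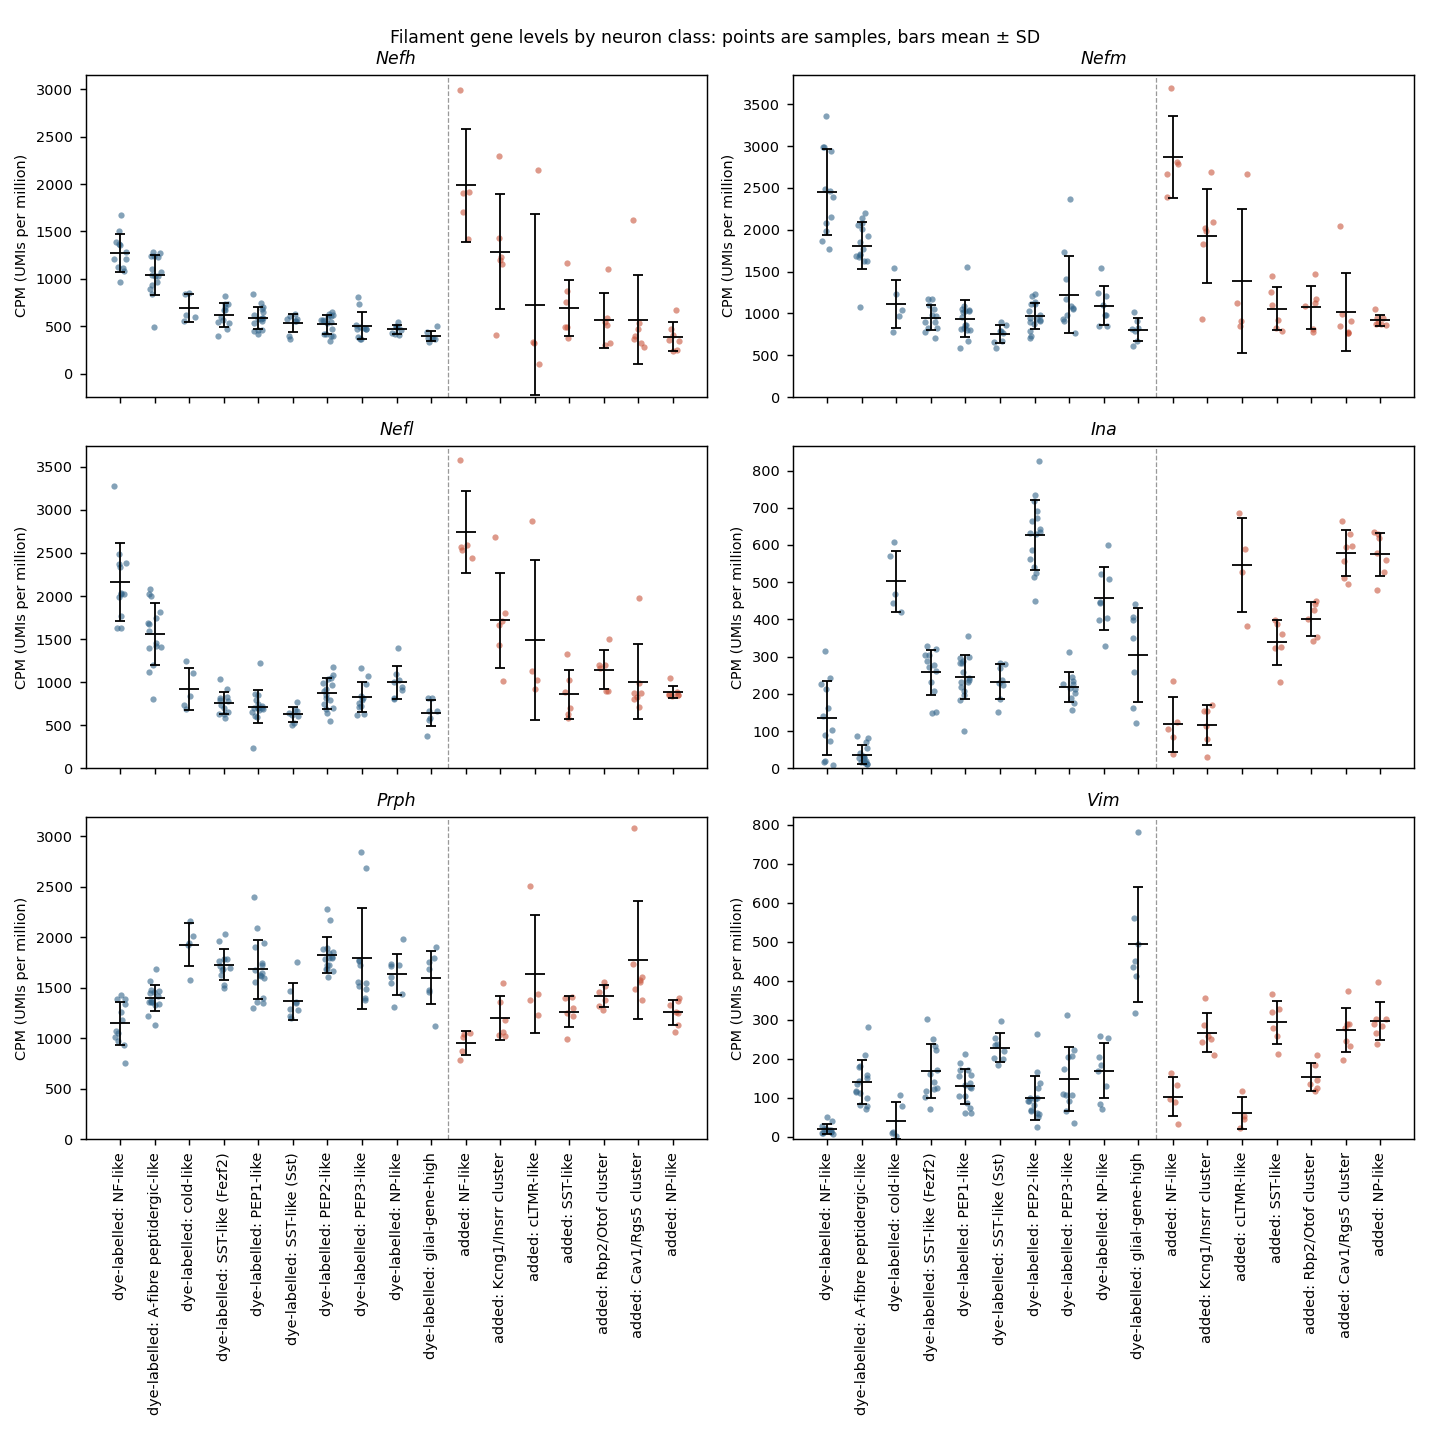
Levels of the 6 filament genes by neuron class in dye-labelled neurons (left of the dashed line) and added sham neurons (right of it), in CPM of UMIs summed per sample. Each point is a sample with at least 3 cells of the class and bars give mean ± SD. Among the dye-labelled classes, Nefh, Nefm and Nefl are highest in NF-like neurons (means of 1275, 2456 and 2162 CPM), Ina in PEP2-like neurons (626 CPM) and Vim in the glial-gene-high cluster (493 CPM).

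Ina ran the other way. It was highest in PEP2-like neurons, at 626 ± 94.9 CPM (n = 16), followed by cold-like (502 ± 82.3, n = 5) and NP-like neurons (456 ± 85.3, n = 8). It was lowest in NF-like neurons (134 ± 99.7, n = 12) and in A-fibre peptidergic-like neurons (36.3 ± 25.4, n = 15). A-fibre peptidergic-like neurons were below the other class in 90 of 92 pairings within samples. NF-like neurons were above the other class in 21 of 81, among them 10 of 12 against A-fibre peptidergic-like and 3 of 7 against SST-like (Sst) neurons. The internexin levels of NF-like neurons ran from 9.39 to 316 CPM between samples. Cold-like and NP-like neurons did not differ beyond the pooled SD, nor did any neighbours in the order from the glial-gene-high cluster down to PEP3-like neurons.

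Prph varied less between classes. Its class means lay between 1365 and 1926 CPM in 9 of 10 classes, with no step between neighbours beyond the pooled SD, and NF-like neurons were lowest at 1148 ± 214 CPM (n = 12), beyond the SD of the class above. NF-like neurons were below the other class in 78 of 81 pairings within samples, and yet each of the 91 held peripherin UMIs. A-fibre peptidergic-like neurons combined high neurofilament with 1400 ± 132 CPM of Prph (n = 15).

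Vim was lowest in NF-like neurons, at 20.0 ± 12.8 CPM (n = 12), and near that in cold-like neurons (41.4 ± 47.6, n = 5). The other named classes had means between 98.8 and 229 CPM. The glial-gene-high cluster, in which 8 of 10 glial markers (among them Apoe and Mbp) were over 2-fold above the rest beside 5 of 6 macrophage markers, held 493 ± 147 CPM (n = 7, from 318 to 781), and its lowest sample lay above the highest of the next class. Across the 110 sums per sample and class, however, Vim showed no rank relation to the summed glial markers (Spearman's rho of -0.07, and of -0.00 over 41 added sums). The part of glial RNA in the Vim levels was not tested.

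The added sham libraries, clustered on their own, had the same named class at the top for the neurofilament subunits. NF-like neurons (10 of 12 NF markers) held 1989 ± 597 CPM of Nefh, 2872 ± 490 of Nefm and 2744 ± 471 of Nefl (n = 5 libraries). A cluster led by Kcng1 and Insrr, with 4 of 5 A-fibre peptidergic markers high, came next with 1287 ± 607, 1925 ± 567 and 1719 ± 551 CPM (n = 6). NF-like neurons exceeded the other cluster in 26 of 26 pairings within libraries for each neurofilament subunit and in 0 of 26 for Prph. Ina stood at 118 ± 73.2 CPM in NF-like neurons and 116 ± 53.7 in the Kcng1/Insrr cluster, against 338 to 578 CPM elsewhere. Vim was 103 ± 49.4 CPM in NF-like neurons (n = 5) and lowest in cLTMR-like neurons, at 59.7 ± 40.9 (n = 4). Names were given to the clusters of each set separately, so that classes of one name need not hold the same cells.

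NF-like and A-fibre peptidergic-like neurons were also the deepest, with medians of 526889 and 449690 UMIs against 150663 to 311100 in the other dye-labelled classes. When only neurons with 200000 to 600000 UMIs were kept, NF-like neurons still held 1225 ± 390 CPM of Nefh and 2324 ± 714 of Nefm, against 555 ± 87.6 and 817 ± 104 in PEP1-like neurons. Prph was 1184 ± 156 CPM in NF-like neurons, against 1414 ± 180 in PEP1-like and 1240 ± 125 in SST-like (Sst) neurons. The last lay within the SD. In the added set, Prph in this window was 1079 ± 188 CPM in NF-like and 1071 ± 146 in SST-like neurons (n = 2 libraries). NF-like neurons stayed deeper inside the window, with a median of 403594 UMIs against 309122 in PEP1-like neurons.

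The subunits followed each other across samples and classes. Over the 110 dye-labelled sums, Spearman's rho was 0.90 for Nefm with Nefl, 0.75 for Nefh with Nefm and 0.69 for Nefh with Nefl (0.91, 0.90 and 0.81 over 41 added sums). Ina was negatively related to Nefh, Nefm and Nefl (-0.45, -0.43 and -0.35) and positively to Prph (0.53, and 0.64 in the added set). Of 8447 genes, Nefm was the gene most like Nefl, followed by Atp2b2, a plasma membrane calcium pump (0.76, added 0.89), and Scn1a, a voltage-gated sodium channel (0.73, added 0.70). The genes most like Ina were Arhgef2 (0.75 in each set), Gng2 (0.72, added 0.83) and Ucp2 (0.70, added 0.69). Prph went with Atp6v0c (0.83), the tubulin gene Tubb5 (0.82) and the ribosomal protein gene Rpl41 (0.81), and less closely in the added set (0.60, 0.56 and 0.49). The first gene for Vim, Abhd4 (0.64), showed no relation in the added libraries (-0.00). All points of a sample share a library and its depth, and these values are given with no test.

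**Figure D2:**
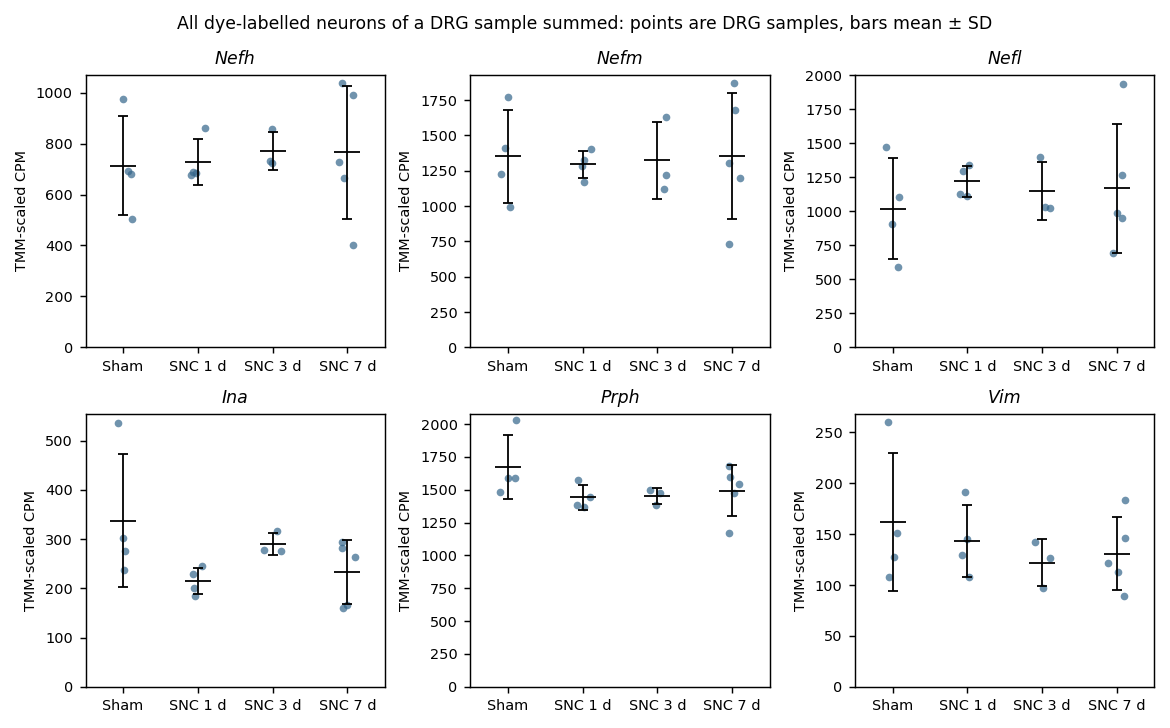
TMM-scaled CPM of the 6 filament genes over all dye-labelled neurons of each DRG sample, by group (points are samples, bars mean ± SD). The groups overlap for Nefh, Nefm and Nefl, and the 4 Ina values at 1 d after SNC (185 to 245) lie largely below those of Sham (236 to 535). The Sham value of 236 is sample 18, reverse-transcribed in 2020 as the 1 d samples were.

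The central comparison asked whether filament transcripts changed after SNC. Summed over all labelled neurons, none of the 6 genes passed at 1, 3 or 7 d (0% of 14241 genes passed at each time by edgeR's quasi-likelihood test with Benjamini-Hochberg adjustment, while 1243, 594 and 475 genes had an unadjusted p under 0.05). DESeq2 called 9, 1 and 0 genes at these times and none of the 6. Fewer cells of a class and less RNA per cell cannot be told apart in these sums. All samples at 1 d and 3 d were reverse-transcribed in 2020. Sham sample 18 was too, but the Sham samples labelled Xin, 4 and 10 were reverse-transcribed in 2019. Year and injury are thus largely mixed at these times. Values below are CPM scaled by the trimmed mean of M values (TMM).

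Nefl, the polymer core, measured 589, 909, 1105 and 1474 CPM in the Sham samples. It measured 1116, 1126, 1300 and 1341 at 1 d, 1026, 1030 and 1398 at 3 d, and 692, 955, 992, 1269 and 1939 at 7 d. The SNC values lay inside or close to the Sham range apart from 1 sample at 7 d. The log2 difference from Sham was 0.26 (SE 0.27), 0.17 (SE 0.29) and 0.20 (SE 0.26), so that intervals of 2 SE run from -0.28 to 0.80 at 1 d and from -0.32 to 0.71 at 7 d. Without the Sham sample labelled Xin, the lowest for Nefl, the differences were 0.05, -0.04 and 0.01.

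Nefh and Nefm had smaller differences. Nefh averaged 714 ± 195 CPM in Sham (n = 4), 728 ± 89.3 at 1 d (n = 4), 771 ± 75.1 at 3 d (n = 3) and 765 ± 259 at 7 d (n = 5), with log2 differences of 0.03 to 0.11 (SE 0.22 to 0.25). Nefm averaged 1352 ± 328 in Sham and 1296 ± 96.8, 1324 ± 271 and 1357 ± 445 CPM after SNC, with log2 differences of -0.06, -0.03 and 0.00. Without Xin, Nefh turned lower after SNC (-0.13, -0.05 and -0.04) and Nefm stood at -0.21, -0.18 and -0.12, with no call. The 5 samples at 7 d were the most spread: sample 19-1 had 25% NF-like neurons and the highest Nefh (1039 CPM) of all dye-labelled samples, and sample 19-2 had 0 NF-like neurons of 24 and the lowest (403 CPM). By the labels 20 of the 24 cells of 19-1 were directly injured, against 4 in 19-2, so that makeup and injury cannot be told apart between these samples.

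Ina had the lowest unadjusted p-values of the 6 at 1 d and 7 d (0.0135 and 0.0287). It measured 236, 277, 302 and 535 CPM in Sham, 185, 201, 228 and 245 at 1 d, 277, 277 and 316 at 3 d, and 161, 166, 264, 282 and 295 at 7 d. Only 1 of the samples at 1 d reached the Sham range. The lowest Sham value, 236 CPM, was that of sample 18, the Sham sample reverse-transcribed in 2020 as all samples at 1 d were. It lay inside the range of the samples at 1 d. The log2 difference was -0.65 (SE 0.23) at 1 d, -0.21 (SE 0.25) at 3 d and -0.53 (SE 0.22) at 7 d, and none passed (edgeR adjusted p = 0.53, 0.98 and 1.00). The Sham sample labelled Xin, which had the lowest UMI sum of all samples (4002503) and 0 NF-like neurons of 24, set the top of the range. Of its neurons 41.7% were PEP2-like, the class highest in Ina, and 29.2% were in the glial-gene-high cluster. Without it the differences were -0.36, 0.07 and -0.22.

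Prph averaged 1674 ± 245 CPM in Sham and 1443 ± 95.1, 1453 ± 62.4 and 1494 ± 195 after SNC, with log2 differences of -0.21 (SE 0.11), -0.20 (SE 0.12) and -0.16 (SE 0.11). Sham sample 18, reverse-transcribed in 2020, held 1485 CPM of Prph, inside the 1 d range of 1372 to 1578 CPM. Vim averaged 162 ± 67.8 CPM in Sham and 144 ± 35.3, 122 ± 22.9 and 131 ± 35.7 after SNC, with differences of -0.16, -0.40 and -0.30 (SE 0.25 to 0.28). Neither gene passed at any time. Both were highest in Xin among the Sham samples (2034 CPM of Prph and 260 of Vim, with a glial marker sum of 1479 CPM). Without it Prph stood at -0.13, -0.13 and -0.06, and Vim at 0.14, -0.11 and 0.02, so that its direction turned at 1 d and 7 d. Sprr1a itself averaged 161 ± 113 CPM in Sham and 146 to 164 CPM after SNC.

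PEP1-like, PEP2-like and A-fibre peptidergic-like neurons had enough samples in each group, and none of the 6 genes passed at any time in any of these (0.00943% of 10607 genes in PEP1-like neurons at 1 d and at 3 d and 0% at 7 d, 0% of 10131 in PEP2-like neurons, and 0.00921% of 10860 at 7 d and 0% before in A-fibre peptidergic-like neurons, by edgeR). In A-fibre peptidergic-like neurons, Nefl measured 785, 1392 and 1547 CPM in Sham and 1745, 1760, 1863 and 1935 CPM at 1 d. Every value at 1 d lay above every Sham value, and those at 3 d did too (1628, 1706 and 2247 CPM), while those at 7 d (1061 to 1740 CPM) overlapped Sham. The log2 difference was 0.56 (SE 0.21) at 1 d and 0.58 (SE 0.23) at 3 d without passing (edgeR adjusted p = 1.00 and 0.52), and 0.17 (SE 0.20) at 7 d. Without Sham sample 10, the lowest, these were 0.32, 0.35 and -0.08. The sums of this class rest on 3 to 15 cells per sample, and on 3 cells each in Sham samples 10 and 4.

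NF-like neurons, with the highest neurofilament levels, had 2 samples at 1 d and were fitted as an addition made after the data were seen. There Nefh measured 1155, 1417 and 1644 CPM in Sham and 901, 1115, 1225 and 1508 at 7 d, a log2 difference of -0.24 (SE 0.18) that did not pass (edgeR adjusted p = 1.00). Ina measured 150, 209 and 254 CPM in Sham, 84.5 and 112 at 1 d, 163, 233 and 296 at 3 d, and 9.36, 16.8, 20.5 and 73.0 at 7 d. All 4 values at 7 d lay below all 3 Sham values, and the values at 3 d lay in or above the Sham range. The log2 difference at 7 d was -2.75 (SE 0.50) with an unadjusted p of 0.000103 and an edgeR adjusted p of 1.00 (0% of 12478 genes passed in each contrast, and 246 had an unadjusted p under 0.05 at 7 d). It passed by DESeq2 (adjusted p = 8.34e-05) and by edgeR when sample 19-1, the highest at 7 d, was left out (adjusted p = 0.000419). Leaving out 19-1 took away the 7 d value nearest to Sham. The share of all genes that passed in these alternatives is not given here. These sums rest on 3 to 14 cells per sample.

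Over all labelled neurons, 0 of 9 tested other filament genes (among them Synm and Lmna), 0 of 3 linkers (Dst, Macf1 and Plec, which tie filaments to other cytoskeleton), 0 of 6 transport genes (Kif5a, Kif5b, Kif5c, Klc1, Dync1h1 and Myo5a), 0 of 6 kinases and 0 of 7 injury genes passed at any time. Of all 14241 genes 0% passed at each time, so that these counts do not set the lists apart from the rest.

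To ask how filament levels went with the depth of a cell, the neurons of each class in each sample were split at their median UMI total. Deeper and shallower cells were summed per sample and compared with the sample as a block. The deeper cells held 3.46 times the UMIs of the shallower ones (median over 16 dye-labelled samples). As shares of all UMIs, 4 of the 6 genes were lower in the deeper cells, where 7.97% of 13790 genes were called lower, 4.65% higher and 12.6% either way. Prph ranged from 912 to 1554 CPM in the deeper cells (median 1287) and from 1087 to 3048 in the shallower (median 2079), lower in 16 of 16 samples. The ranges overlapped, but its log2 difference was -0.67 (SE 0.07, edgeR adjusted p = 3.51e-08). Nefm ranged from 583 to 2172 CPM (median 1069) against 726 to 3263 (median 1791), lower in 15 of 16 samples, with a log2 difference of -0.66 (SE 0.07, edgeR adjusted p = 9.47e-08). Nefl (-0.60, SE 0.07) and Nefh (-0.55, SE 0.06) were each lower in 15 of 16 samples and were also called. Ina (-0.16, SE 0.08) and Vim (-0.20, SE 0.10) were not called.

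Other abundant genes differed in the same direction. All 328 genes with a mean of at least 500 CPM were called lower in deeper cells (100%), with a median log2 difference of -0.55. Nefh, Nefm, Nefl and Prph are 4 of these 328. The median was -0.64 over the 60 genes above 1000 CPM, -0.19 over the genes from 200 to 500 CPM, which include Ina, and -0.00 over those from 100 to 200 CPM, which include Vim. Of the genes in the tier of Ina 90% lay between -0.42 and -0.01, a range that held Ina, and in the tier of Vim between -0.19 and 0.15, just above Vim. Called lower as well were 6 of 6 transport genes (Kif5a by -0.70) and 3 of 3 linkers (Dst by -0.66).

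**Figure D3:**
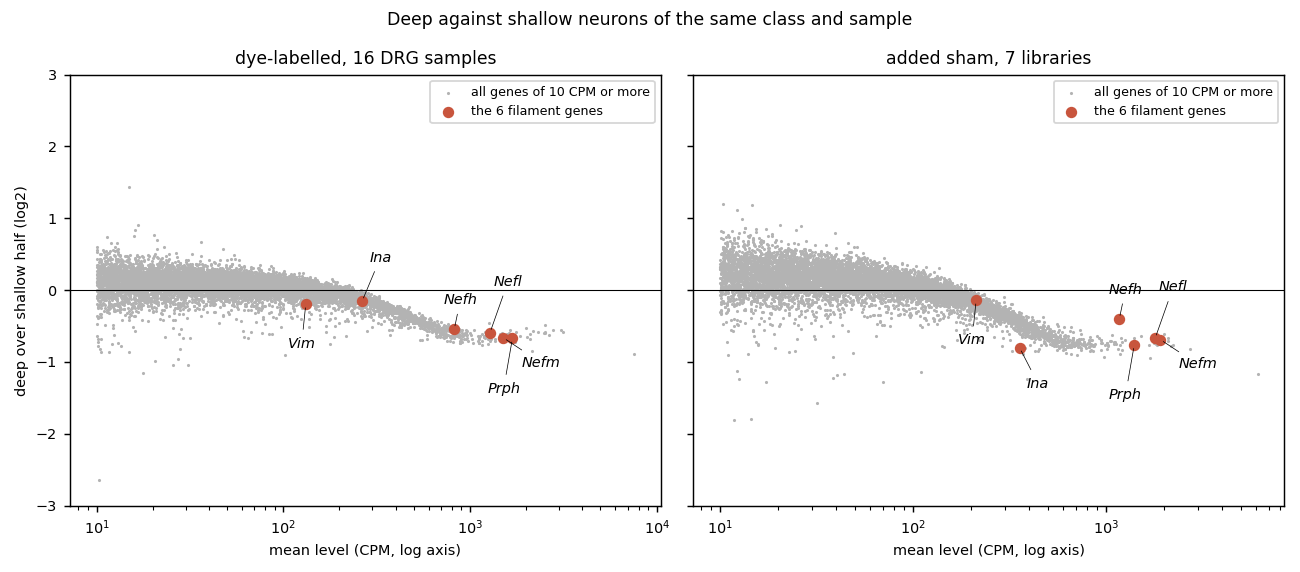
Log2 difference of deeper over shallower neurons of the same class and sample against mean level (CPM, log axis), for dye-labelled samples and added libraries. Grey points are all genes of 10 CPM or more, red points the 6 filament genes; the abundant genes bend downwards together, to a median of -0.64 above 1000 CPM in the dye-labelled set, and Nefh, Nefm, Nefl and Prph sit among them, while Ina lies below the genes of its level in the added set.

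In the 7 added libraries 5 of the 6 genes were lower in deeper cells, where 7.29% of 15327 genes were called lower, 2.69% higher and 9.98% either way, and 242 of 242 genes above 500 CPM were called lower (median -0.72). Nefm (-0.69), Nefl (-0.67), Prph (-0.76) and Nefh (-0.40) were among these 242, and the Nefh call was lost without library S3 (edgeR adjusted p = 0.0505). Ina differed by -0.80 (SE 0.09, edgeR adjusted p = 1.96e-05), lower in 7 of 7 libraries, at 246 CPM in deeper and 408 CPM in shallower cells (medians). Of the genes from 200 to 500 CPM there, 90% differed by between -0.63 and -0.13, so that Ina lay below that range. Vim differed by -0.14 (SE 0.10) and was not called.

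**Figure D4:**
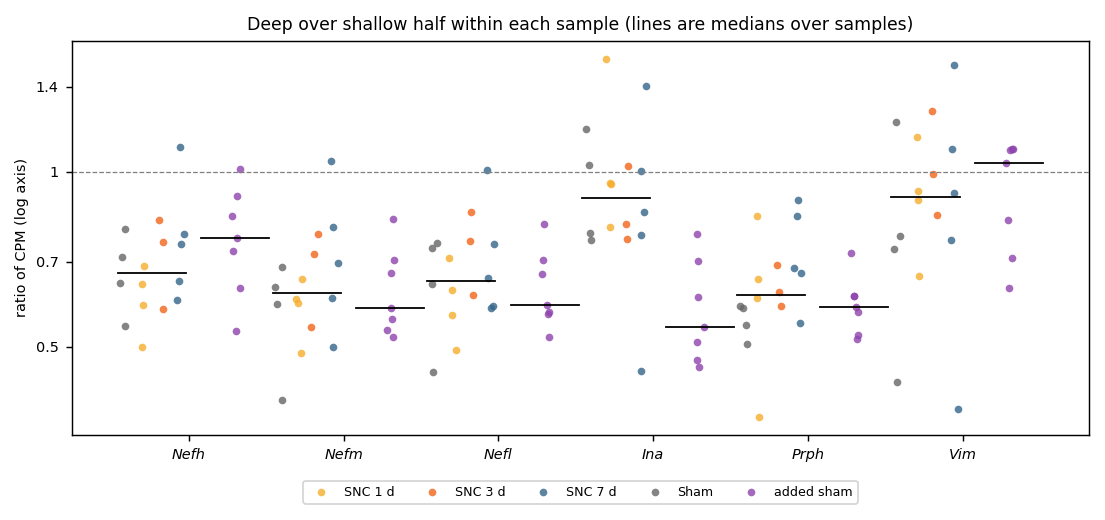
Ratio of CPM in deeper over shallower neurons for each sample (points, log axis, line at the median), in the dye-labelled set by group and in the added set. Prph lies below 1 in 16 of 16 dye-labelled samples and in 7 of 7 added libraries, and Ina lies below 1 in 7 of 7 added libraries but in 10 of 16 dye-labelled samples.

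Held to a single class, the dye-labelled depth difference was largest for Nefm and Prph in PEP2-like neurons (-0.98, SE 0.10, and -1.01, SE 0.11) and smaller in NF-like neurons (-0.44, SE 0.15, and -0.52, SE 0.11, of which Prph was called). Ina was called in PEP2-like neurons, where it is high (-0.46, SE 0.09, edgeR adjusted p = 0.000239). The difference between classes was not tested. With every neuron thinned to 20000 UMIs, Nefm stood at -0.84 (SE 0.06) and Prph at -0.92 (SE 0.06), and Ina was called as well (-0.30, SE 0.06).

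To relate filament genes to Sprr1a level inside each sample, neurons were split in the same way at the median Sprr1a level of their class in that sample (391 higher and 438 lower neurons). Neurons of Sham samples held Sprr1a too, so that the split does not part crushed from uncrushed neurons. Nefl and Nefm were lower in the Sprr1a-high neurons. Nefl ranged from 488 to 2187 CPM in Sprr1a-high neurons (median 1010) and from 578 to 2461 in Sprr1a-low neurons (median 1199), lower in 14 of 16 samples. The groups overlapped between samples, and within samples the log2 difference was -0.23 (SE 0.05, edgeR adjusted p = 0.00970). Nefm ranged from 673 to 2004 CPM (median 1215) against 658 to 2403 (median 1336), lower in 12 of 16 samples, with a log2 difference of -0.23 (SE 0.06, edgeR adjusted p = 0.0199). Thus 2 of the 6 genes were called lower, where 1.23% of 13574 genes were called lower, 2.58% higher and 3.81% either way. Of the 308 genes above 500 CPM, 1.62% were called lower, and the median of these was -0.06. Of the 56 genes above 1000 CPM, 90% lay between -0.19 and 0.04, and both Nefl and Nefm lay below that range. Refits without each sample in turn kept both calls in 16 of 16 cases. Neither gene was called without the sample block, with the middle of each class left out or with classes not balanced, and with 20 principal components only Nefl was.

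Nefh (-0.12, SE 0.06), Prph (-0.09, SE 0.05), Ina (-0.13, SE 0.15) and Vim (-0.11, SE 0.12) were not called. Ina was higher in 8 samples and lower in 8, and in 1 SNC 1 d sample its ratio was 0.108. Synm, which encodes synemin, a filament protein that co-assembles with vimentin, was called lower as well (-0.38, SE 0.07), and so was the kinesin gene Kif5b (-0.17), whereas the linker gene Macf1 was called higher (0.19). Of the injury genes the split did not use, Atf3, an injury transcription factor, and Gal, which encodes galanin, were called higher (0.37, SE 0.08, and 0.41, SE 0.07), and Sox11, Jun, Ecel1 and Gap43 were not.

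**Figure D5:**
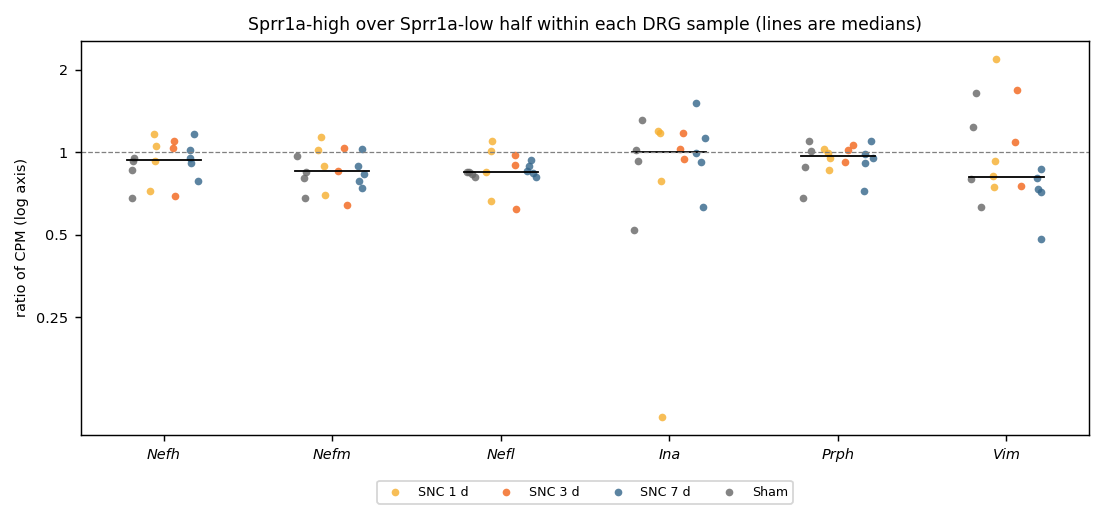
Ratio of CPM in Sprr1a-high over Sprr1a-low neurons of the same class and DRG sample, for each of 16 samples coloured by group (log axis, lines are medians). Nefl lies below 1 in 14 samples and Nefm in 12, in Sham as in SNC samples, while Prph has a median of 0.967.

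Depth moved with this split. Sprr1a-high neurons had a median of 258438 UMIs and Sprr1a-low neurons 181342, and they were deeper in 13 of 16 samples. When the split was made within deeper and within shallower cells, an addition made after the data were seen, Nefl stood at -0.22 (SE 0.10, edgeR adjusted p = 0.38) and Nefm at -0.20 (SE 0.10, edgeR adjusted p = 0.46), neither of which was called. Neither gene was called within any class alone except 1 gene in the SST-like (Fezf2) class. In the 4 Sham samples alone Nefl differed by -0.25 (SE 0.12) and in the 12 SNC samples alone by -0.22 (SE 0.06). A test of SNC against Sham for this difference called 0% of 13574 genes by edgeR (629 had an unadjusted p under 0.05) and gave 0.04 (SE 0.12) for Nefl and 0.08 (SE 0.13) for Nefm. The added libraries held 6 Sprr1a UMIs in 1 neuron and could not be split.

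In the added libraries, sham neurons from 1 to 7 d were compared with those from day 0. Nefh measured 275, 311 and 1070 CPM at day 0 against 932 and 1298 at day 1, 2505 at day 3 and 973 at day 7, and the groups overlapped because of 1 library at day 0. The log2 difference was 1.37 (SE 0.54) and did not pass, and none of the 6 genes passed (0% of 16161 genes by edgeR, 1503 with an unadjusted p under 0.05). The 2 low libraries, S1 and S2, held 0 NF-like neurons of 44 and 46 and glial marker sums of 145 and 190 CPM, whereas the high one, S7, held 27.1% NF-like neurons and 1260 CPM of glial markers. Without S7, 4 of the 6 genes were called: Nefh (2.29), Nefm (1.29) and Nefl (1.13) higher and Ina (-0.81) lower. That refit set day 0 libraries with 0 NF-like neurons against later libraries with 7.37% to 50% of them. Makeup and day cannot be told apart in it, and its share of all genes called is not given here. Within NP-like neurons, present in all 7 libraries, Nefm and Nefl differed by 0.05 (SE 0.17) and 0.04 (SE 0.17), and Nefh measured 251, 259 and 348 CPM at day 0 and 348 to 602 CPM later, a difference of 0.71 (SE 0.20, edgeR adjusted p = 0.53, with 0.00898% of 11141 genes called). NP-like neurons of S1 and S2 held UMIs of 6 of 12 NF markers, and those of the other libraries of 10 to 12. These markers summed to 374, 421 and 377 CPM at day 0 and to 369 to 1180 CPM later, with the highest sum in S4. The NP-like values of S7 and of S4 rest on 3 cells each. The part of NF-like RNA in the NP-like levels was not tested.

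Sham neurons of the dye-labelled set were last compared with the added sham neurons, a contrast in which dye, injected nerve, operation day and sequencing batch cannot be told apart and in which 40.6% of 15793 genes were called (16.5% higher and 24.2% lower in the dye-labelled samples). Of the 6 genes only Prph was called over all neurons by edgeR with all samples (without Xin, Vim was called as well, at -0.61). It measured 1592 to 2020 CPM in the 4 dye-labelled Sham samples (median 1622) and 986 to 1451 CPM in the 7 added libraries (median 1216). The groups did not overlap, and the log2 difference was 0.50 (SE 0.12, edgeR adjusted p = 0.00620). Nefl, with 0.54 less on the log2 scale in the dye-labelled samples, had an SE of 0.33 and was not called. The injury genes were called higher in the dye-labelled Sham samples in 7 of 7 cases, among them Atf3 (2.06) and Gap43 (1.47).

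Held to a class, Vim and Prph kept those directions. In NP-like neurons, where 37.8% of 10892 genes were called (14.8% higher and 23% lower), Prph was higher in dye-labelled Sham samples (1552, 1746 and 2041 CPM against 981 to 1445, log2 difference 0.49, SE 0.17), Nefm was higher (1121, 1204 and 1584 against 900.4 to 970 CPM, 0.50, SE 0.14) and Vim was lower (73.3, 170 and 261 against 208 to 407 CPM, -0.85, SE 0.28). The Prph call was lost without Sham sample 10, without 18 or without added library S6, that of Nefm without 10, and that of Vim without 18 or without 4. In NF-like neurons, where 25.5% of 12382 genes were called (11.4% higher and 14.1% lower), Vim measured 9.09, 21.9 and 39.2 CPM in dye-labelled Sham samples and 30.4 to 159 CPM in 5 added libraries. Its log2 difference was -2.04 (SE 0.53, edgeR adjusted p = 0.0201), and it was not called without Sham sample 10 or without 18. Nefh, Nefm and Nefl were not called between the sets in NF-like neurons.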

How the data were processed

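Per the labels and the study's methods, the authors made cDNA from single picked neurons by a modified Smart-seq2 protocol with cell barcodes and UMIs at the 3′ end. They deposited whole-number UMI counts per gene and cell, made with STAR, featureCounts, SAMtools and UMI-tools on Rnor_6.0. Library S-2 was summed with S-3 as DRG sample S. Neurons were clustered in Seurat 5.3.0 without the 6 genes among the variable genes. Counts were summed per sample, class or split and tested with edgeR 4.0.16 (quasi-likelihood, TMM, filterByExpr, adjusted p under 0.05) in R 4.3.3. DESeq2 1.42.0 and limma 3.58.1 served as alternatives. SEs are on the log2 scale. The steps were tested on simulated data. Doublets were not called, since neurons were picked singly. Named genes are the 6, a related-gene list and, by correlation, the 3 most alike of each; of the most alike genes a subset is named. The genes and lists were chosen with earlier results of these data known.

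Group fits had no block; an alternative took samples copied on the same reverse transcription date as a replicate block, since replicate numbers in the labels only name samples. Split fits had the DRG sample as the block, because both sums came from the same sample. The fit of NF-like neurons, splits within depth strata and fits of single classes or of Sham and SNC samples apart were added after the data were seen.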

Additional observations from a re-analysis of the deposited data

Results flagged for a closer look

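Of 132 groups of samples tested for a value far from the others, 14 held one, and chance alone gives about 1 in 20 groups. Among the SNC 1 d samples, Nefh in sample 17-2 was 861 CPM with the next sample at 688, and its ratio of Vim between Sprr1a-high and Sprr1a-low neurons was 2.19 with the next at 0.930.

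Most of the others came from added library S4, the single day 3 library, in which 50% of neurons were NF-like. Nefh in its Rbp2/Otof cluster was 1106 CPM, Nefl in its NP-like neurons 1049 CPM and Nefl in its NF-like neurons 3580 CPM. In its Cav1/Rgs5 cluster, Nefh was 1621, Nefm 2048, Nefl 1972 and Prph 3077 CPM. In its cLTMR-like neurons, Nefh was 2152, Nefm 2662, Nefl 2871 and Prph 2506 CPM. The Cav1/Rgs5, cLTMR-like and NP-like clusters had 3 cells each in S4, the Rbp2/Otof cluster 13 and NF-like 43. Its Cav1/Rgs5 cells had a median of 33904 UMIs, against 285212 to 589542 in the other libraries. Its cLTMR-like cells had 91505, whereas its NP-like cells had 656753, the most for that class. NF markers summed to 1180 CPM in its NP-like cells, against 369 to 535 in the other libraries. The part of depth or of NF-like RNA in these levels was not tested. Library S7, with 3 NP-like cells, had the highest Vim in NP-like neurons, at 396 CPM with the next library at 302.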

How the results depend on the processing

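For the Sprr1a split, 2 of the 6 genes were called, and 0 were called in PEP1-like, PEP2-like, PEP3-like, NF-like, A-fibre peptidergic-like, NP-like, SST-like (Sst), glial-gene-high or cold-like neurons alone, with the middle of each class left out of the split, with classes not balanced, in the 4 Sham samples only or within depth strata. In SST-like (Fezf2) neurons alone, in the 12 SNC samples only and with 20 principal components, 1 was called. Nefl was higher in SST-like (Sst) neurons alone (0.085) and Nefm in glial-gene-high neurons alone (0.22). For the depth split of dye-labelled neurons, 4 genes were called, against 1 in NF-like, 2 in A-fibre peptidergic-like, 0 in SST-like (Sst), 0 in glial-gene-high and 1 in cold-like neurons alone. Between dye-labelled and added sham neurons, thinning gave 2 called genes, and DESeq2 gave 2 in NF-like neurons. DESeq2 gave 1 for SNC in NF-like neurons. The causes were not tested, but single classes hold fewer cells. The share of all genes called in each alternative or refit of this section is not given. These counts thus do not compare the 6 genes with the rest.

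Without the replicate block of DRG sample, 0 genes were called for the Sprr1a split and 1 for the added depth split, and 4 stayed called for the dye-labelled depth split. When samples copied on the same date formed a replicate block, 0 were called at each time after SNC. No Sham sample shared such a date with a sample at 1 d or 3 d. Inside a date the block thus holds no contrast of Sham with these times.

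Leaving out each sample gave 0 to 1 called genes for SNC in NF-like neurons, 0 to 4 for the added days, and between dye-labelled and added sham neurons 1 to 2 over all neurons, 0 to 2 in NF-like and 1 to 6 in NP-like neurons. The level of Vim in NF-like neurons was 82.5 CPM at resolution 0.3. In added NF-like neurons, the mean of the cells' CPM and the depth window gave 3591 and 3568 CPM for Nefm, 3447 and 3380 for Nefl, and 1186 and 1079 for Prph. Of the values of single genes under all alternatives, 2697 kept their side of the threshold, 60 lost the call and 22 gained it. Direction was compared only for values with a call in the main fit or the alternative, and 2 of those reversed. Values never called can have changed direction. The planned Sprr1a split of added libraries was not run, because 1 neuron held Sprr1a.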
